A study of Drosophila melanogaster with 12 samples.

Results

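ASH1 is a trithorax group protein of Drosophila that methylates lysine 36 of histone H3 and helps to keep developmental genes active against silencing by the Polycomb group. Its BAH domain is a chromatin interaction module, and its AT hooks are short motifs that bind the minor groove of AT-rich DNA. The comparison described here sets a doubly mutant ASH1, which lacks the BAH domain and carries a mutated first AT hook, against the full-length protein. It uses 6 of the 12 libraries of RNA from wing discs, the larval tissue that forms the wing and part of the thorax, chosen by genotype alone: 3 libraries of the line ΔBAH mutAT1 and 3 of the line ASH1 WT. The question was which transcripts differ when both chromatin-binding features are affected together.

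Both lines carry an EGFP-tagged ash1 transgene with a w+ marker, driven in all tissues by the alpha-tubulin promoter and inserted at the same landing site, in a w[1118] background with the endogenous alleles ash1[10]/ash1[22]. The ash1[22] allele carries an early stop, and ash1[10] makes a catalytically inactive full-length protein. Wild-type ash1 was supplied by the mothers, larvae were raised at 25 degrees, and discs were taken at the 3rd instar. In ΔBAH mutAT1 the central arginines of the first AT hook were also changed to alanine. The other 6 libraries are 3 of wild type (w[1118], without a transgene) and 3 of ΔBAH, which carries the deletion alone. They enter the fit and are given where they place a value. Replicates were separate RNA preparations. Each genotype stands for 1 line as far as the sources state, so the effect of the altered protein and any other difference between the lines cannot be told apart. In bulk tissue, fewer cells of a type and less RNA per cell cannot be told apart either.

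Total counts lay between 16662623 and 29221680 in ASH1 WT and between 16706895 and 36837815 in ΔBAH mutAT1, where 1 count corresponded to 0.0262 to 0.0615 CPM (counts scaled to the size of the library) over the 6 libraries. The study states that sequencing was done in 3 runs, and the assignment of libraries to them was inferred from blocks of consecutive library numbers in the labels. Run 2 held ASH1 WT 1 and ΔBAH mutAT1 2, run 3 held ASH1 WT 2 and 3 and ΔBAH mutAT1 3, and run 1 held ΔBAH mutAT1 1 but no ASH1 WT library. Deviations from the line means correlated at 0.64, 0.63 and 0.65 across genes between libraries of the same run, and at -0.55 between the libraries numbered 2, which came from different runs (genes are not independent replicates). Run 3 differed from run 2 by more than 2-fold for 1917 of 8346 genes (22.97%) in ASH1 WT and for 773 genes (9.26%) in ΔBAH mutAT1, and 476 genes did so in the same direction in both lines. Values with run as a covariate (the run term) are therefore given beside the main results. Markers of the wing disc epithelium were present in every library, with 15 genes summing to between 3318 and 5438 CPM in ASH1 WT and between 3184 and 4750 CPM in ΔBAH mutAT1, and none of them at 0.

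The level of ash1 itself, which sums endogenous and transgenic transcripts, was 234, 534 and 463 CPM in ASH1 WT libraries 1, 2 and 3. In ΔBAH mutAT1 it was 343, 182 and 417 CPM. In wild type it lay between 85.6 and 112 CPM, below every transgenic library. The 2 lines overlapped in ash1, and the lowest library of each belonged to run 2. The log2 fold change of ΔBAH mutAT1 against ASH1 WT was -0.39 ± 0.43 (SE, n = 3 per line, adjusted p = 1 by the quasi-likelihood F test of edgeR, with the adjustment of Benjamini and Hochberg over all genes tested), so that no difference in transgene level was detectable. It was -0.21 ± 0.23 with run as a covariate, and within runs 2 and 3 the mutant library was the lower. Counts over the gene cover a transcript that the deletion makes shorter in the mutant.

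The level of w differed between lines whose labels all list the w+ marker. The white gene (w), which encodes a pigment precursor transporter of the eye, had 0.984, 0.308 and 0.227 CPM in ASH1 WT although the labels of all transgenic lines list w+. In ΔBAH mutAT1 it had 43.1, 46.6 and 35.2 CPM. The ΔBAH line resembled the double mutant in level, with 36.8, 33.1 and 31.0 CPM, whereas wild type, which has no marker, had 0.630, 3.94 and 0.554 CPM. The log2 fold change of ΔBAH mutAT1 against ASH1 WT was 6.24 ± 0.79 (SE, adjusted p = 0.0168), and 6.39 with the run term (adjusted p = 0.000329). The lines compared thus differed in counts over w as well as in the coding sequence of the transgene. These counts do not separate the marker from the endogenous gene, and the labels state a genotype, not expression in discs. Why the lines differed in w was not tested.

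**Figure D1:**
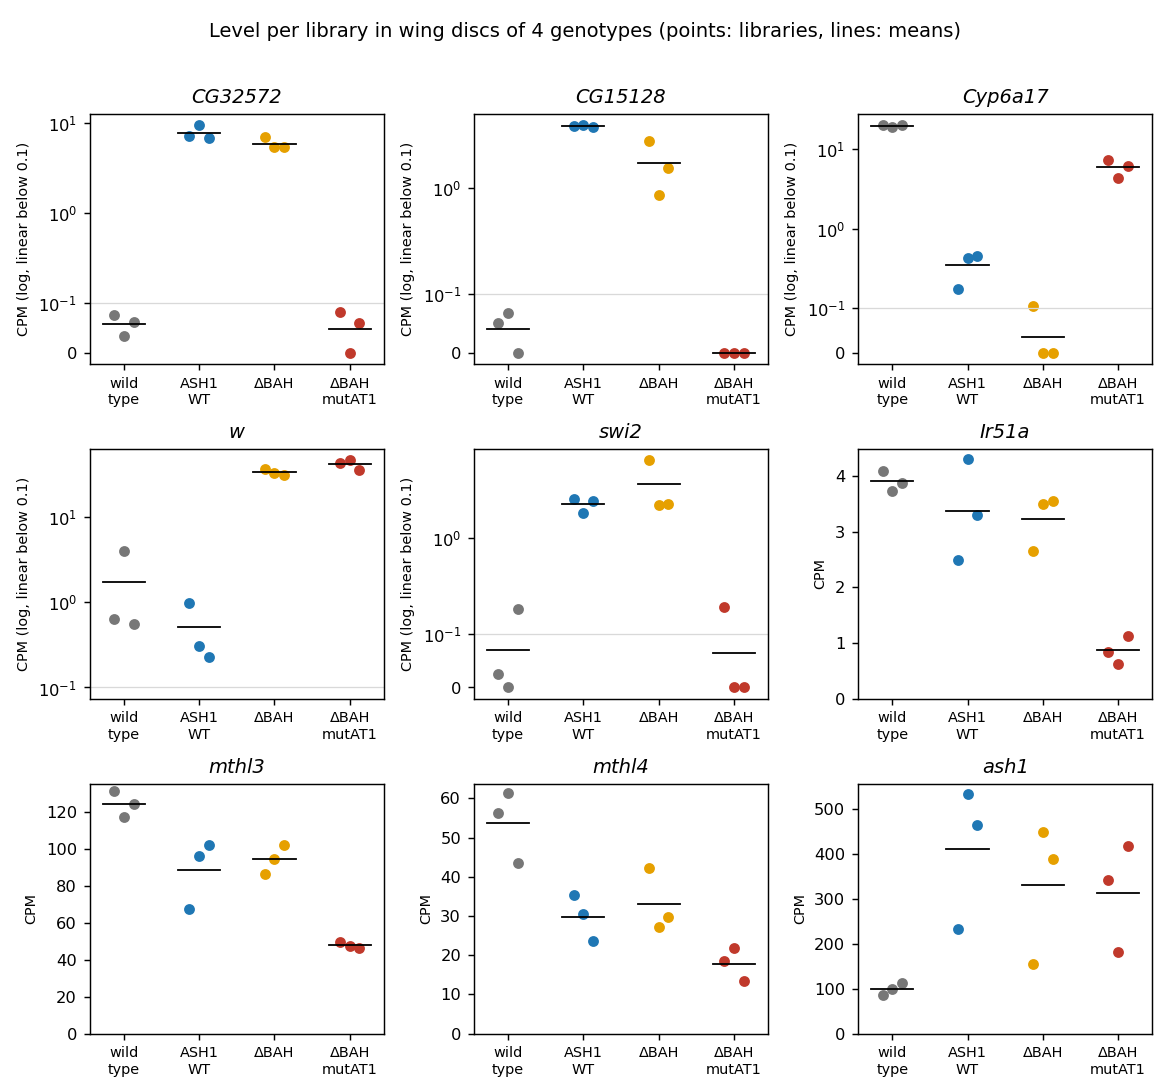
Level of 9 genes in CPM (vertical axes, logarithmic above 0.1 and linear below it for the first 5 genes, linear from 0 for the others) in the 3 libraries of each of 4 genotypes. Points are libraries and lines are means. CG15128 had 0 CPM in all 3 ΔBAH mutAT1 libraries and between 3.75 and 3.87 CPM in ASH1 WT, while the 2 lines overlapped for ash1.

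Across all genes the lines differed little in the main fit. Of 8346 genes tested, 4 (0.0479%) passed an adjusted p of 0.05, 2 higher and 2 lower in ΔBAH mutAT1 (0.024% each way), and the median absolute log2 fold change was 0.14. Those higher were w and Cyp6a17, and those lower were CG32572 and CG15128. An unadjusted p below 0.01 together with a difference over 2-fold was reached by 10 genes in each direction (0.12% of genes tested each way, 0.24% in all). With run as a covariate the directions were not balanced, with 12 genes higher and 37 lower. Counts below an unadjusted p of 0.05 were 81 higher and 97 lower, together 2.13% of the genes tested, less than uniform p would give. Below an unadjusted p of 0.01 lay 31 genes, where 83.5 would be expected if p were uniform, and 160 with run as a covariate. The unadjusted calls of the main fit are thus no excess over that expectation, whereas those with the run term exceeded it. The 3 libraries of the lines did not overlap for 273 genes higher (3.27%) and 240 lower (2.88%) in the double mutant, together 6.15% of all genes tested. With run as a covariate 6 genes passed (0.0719%), the same 4 and also mthl3 and mthl4, both lower, and 351 genes higher (4.21%) and 326 lower (3.91%) had an unadjusted p below 0.05. The coefficient of variation common to all genes was 32.0% without the run term and 14.4% with it.

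**Figure D2:**
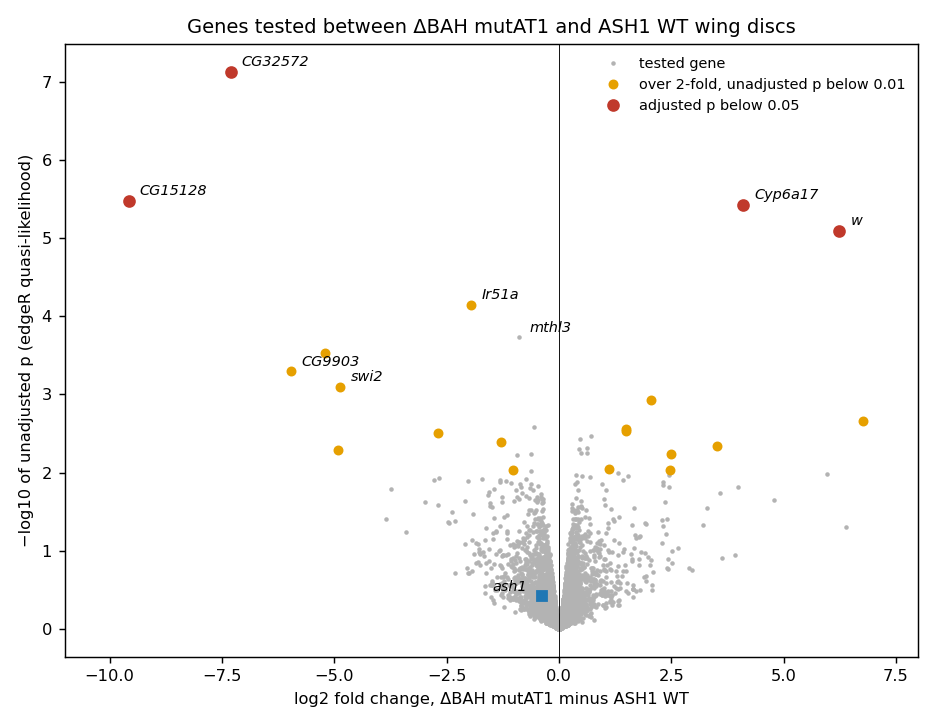
Log2 fold change of ΔBAH mutAT1 minus ASH1 WT (horizontal axis) against the negative log10 of the unadjusted p (vertical axis) for 8346 genes. The 4 red points passed an adjusted p of 0.05, the yellow points are the further genes that differed over 2-fold with an unadjusted p under 0.01, and the blue square is ash1 at -0.39.

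Among the lower genes, CG32572 (FBgn0052572, chromosome arm X) was nearly lost from the double mutant. It had 7.17, 9.47 and 6.76 CPM in ASH1 WT and 0.0821, 0 and 0.0597 CPM in ΔBAH mutAT1. The mutant library was far below in runs 2 and 3, the runs that held both lines. Over the groups 477 counts faced 4, a ratio of 175 (95% counting interval 67.9 to 645), and the log2 fold change was -7.30 ± 0.58 (SE, adjusted p = 0.000621), or -7.96 with the run term. ΔBAH, with 5.35 to 6.98 CPM, was close to ASH1 WT, and wild type, with 0.0340 to 0.0756 CPM, was as low as the double mutant. An exon of CG34325 lies opposite to it, and without a stated strand setting reads of such a pair could be mixed. CG34325 had 2.28 to 9.06 CPM in ASH1 WT and 3.04 to 4.71 CPM in ΔBAH mutAT1, which overlap.

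CG15128 (FBgn0034467, arm 2R) was the other gene that fell. It had 3.83, 3.87 and 3.75 CPM in ASH1 WT and no count in any ΔBAH mutAT1 library. The double mutant was at least 116-fold lower, taking 3 counts over the group as the limit of detection (adjusted p = 0.0103, and 0.0104 with the run term). ΔBAH, with 2.72, 0.842 and 1.54 CPM, lay below ASH1 WT in every library but was not at 0, and that difference did not pass (log2 fold change -1.15, adjusted p = 1). Wild type had at most 0.0680 CPM. With the spread of these libraries the call for CG15128 depended on single libraries. It was lost without ASH1 WT 2 (adjusted p = 0.0646), ASH1 WT 3 (0.0748) or ΔBAH mutAT1 1 (0.0635).

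Cyp6a17 (FBgn0015714, arm 2R), a cytochrome P450 gene known for its part in the temperature preference of flies, rose in the double mutant. It had 0.176, 0.431 and 0.454 CPM in ASH1 WT and 7.31, 4.34 and 6.03 CPM in ΔBAH mutAT1 (log2 fold change 4.10 ± 0.48, SE, adjusted p = 0.0103, or 4.07 and 0.000832 with the run term). The groups did not overlap in run 2 or in run 3. ΔBAH had 0.107 CPM in library 1 and none in the others, and wild type had 18.9 to 19.8 CPM, so the double mutant lay between the transgenic lines and wild type. Its call was lost without ASH1 WT 2 (adjusted p = 0.0646), ASH1 WT 3 (0.0748) or ΔBAH mutAT1 1 (0.0635), and with only the 9 transgenic libraries (0.267). The related gene Cyp6a23 begins 89 bp away, and reads could be divided between such copies. Cyp6a23 had 0.0351, 0.431 and 0.114 CPM in ASH1 WT and 0.794, 0.340 and 0.358 CPM in ΔBAH mutAT1, which overlap (log2 fold change 1.47 ± 0.96, SE).

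In the 6 libraries alone, without the spread of the other genotypes, no gene passed. There 6 genes were higher and 13 lower by over 2-fold with an unadjusted p under 0.01, and 103 genes lay below an unadjusted p of 0.05. CG32572 and w both had an adjusted p of 0.0503 in that fit, CG15128 had 0.0934 and Cyp6a17 had 0.111. The call for w was lost without any of ASH1 WT 2 (adjusted p = 0.178), ASH1 WT 3 (0.164), ΔBAH mutAT1 1 (0.0702), 2 (0.0717) or 3 (0.0519). CG32572 passed in each of the 12 fits that left out 1 library.

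The methuselah-like genes mthl3 and mthl4, members of a family of G protein-coupled receptors, lie 1049 bp apart on arm 2R with no coding gene between them. mthl3 had 67.6, 95.9 and 102 CPM in ASH1 WT and 49.5, 47.6 and 46.4 CPM in ΔBAH mutAT1. mthl4 had 35.3, 30.6 and 23.5 CPM in ASH1 WT and 18.5, 21.7 and 13.4 CPM in ΔBAH mutAT1. For both, every double-mutant library was below every ASH1 WT library, and ΔBAH overlapped ASH1 WT. Such separation (2.88% of all genes tested, lower) was a condition for naming mthl3 among the leading genes. Both genes were also named for passing with the run term at equal signs within runs 2 and 3. Their separation is therefore not further evidence. The log2 fold changes were -0.89 ± 0.16 (SE, adjusted p = 0.258) for mthl3 and -0.74 ± 0.25 (SE, adjusted p = 1) for mthl4. With run as a covariate they were -0.86 (adjusted p = 0.0301) and -0.88 (adjusted p = 0.0318), and over all alternatives the adjusted p ranged from 0.00286 to 1 and from 0.0318 to 1. Wild type had more of each than any transgenic line on average, 117 to 131 CPM of mthl3 and 43.5 to 61.4 CPM of mthl4. Reads may be shared between such related neighbours.

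Ir51a, an ionotropic receptor gene of the chemosensory family that the annotation lists as a pseudogene, had 2.49, 4.31 and 3.30 CPM in ASH1 WT. In ΔBAH mutAT1 it had 0.848, 0.628 and 1.13 CPM. Its level was similar in ASH1 WT, in ΔBAH (2.65 to 3.55 CPM) and in wild type (3.74 to 4.08 CPM), and only the double mutant was below 2 CPM in these 12 libraries. The log2 fold change of -1.96 ± 0.32 (SE) missed the threshold without the run term (adjusted p = 0.118) and with it (adjusted p = 0.0783), and passed with DESeq2 alone among 23 alternatives (adjusted p = 3.37e-05, range 3.37e-05 to 1).

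A further set of genes was low or nearly absent in the double mutant, without passing the adjusted threshold in the main fit. swi2 had 2.60, 1.85 and 2.44 CPM in ASH1 WT and 0.192, 0 and 0 CPM in ΔBAH mutAT1 (log2 fold change -4.88 ± 1.06, SE, adjusted p = 0.742). FBgn0004377, which the annotation does not name, had 4.43, 5.97 and 8.12 CPM against 0.0821, 0 and 0.537 CPM (log2 fold change -5.21 ± 1.00, SE, adjusted p = 0.356). CG9903 had 1.19, 0.677 and 1.08 CPM against 0.0274, 0 and 0 CPM, which is 64 counts against 1 over the groups. None of these genes overlapped between the lines, which was a condition for naming the leading genes and is not further evidence. That ratio of CG9903 was 94.0 with a 95% counting interval of 16.3 to 3769 (adjusted p = 0.528). CG15347 had 1.83, 3.20 and 1.19 CPM in ASH1 WT and 0.383, 0.314 and 0.239 CPM in the double mutant (log2 fold change -2.68 ± 0.71, SE, adjusted p = 1). With the run term the log2 fold changes were -5.37 for FBgn0004377, -5.91 for CG9903 and -3.21 for CG15347, and none passed. With DESeq2, swi2 (adjusted p = 0.000466), FBgn0004377 (9.77e-06) and CG9903 (0.0207) passed, and CG9903 also passed in edgeR without ΔBAH 1 (0.0353), while over all alternatives the adjusted p of each ranged up to 1. In ΔBAH swi2 was between 2.23 and 6.55 CPM and FBgn0004377 between 2.53 and 5.55 CPM, near ASH1 WT. CG15347, with 2.18, 0.662 and 0.268 CPM, reached the double-mutant level in ΔBAH, and CG9903, with 0.107, 2.16 and 1.34 CPM, varied widely there. In wild type swi2 had at most 0.185 CPM, FBgn0004377 at most 0.202 CPM and CG15347 at most 0.126 CPM, whereas CG9903 had 0.554 to 1.26 CPM. An exon of HPS4 lies opposite to swi2. HPS4 had 22.8 to 47.2 CPM in ASH1 WT and 32.4 to 36.1 CPM in ΔBAH mutAT1, which overlap.

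On the higher side, below the adjusted threshold, the differences were mostly of low-level genes. FBgn0085363 had no count in ASH1 WT and 0.575, 0.576 and 0.477 CPM in ΔBAH mutAT1, at least 11.6-fold more than the limit of 3 counts over the group (adjusted p = 1). FBgn0033765 had 2.53, 2.40 and 3.69 CPM in ASH1 WT and 10.8, 15.9 and 8.65 CPM in ΔBAH mutAT1 (log2 fold change 2.04 ± 0.47, SE, adjusted p = 0.975, or 2.22 and 0.201 with the run term). It passed with DESeq2 (adjusted p = 0.0332, the lowest of its alternatives, which ranged up to 1). In ΔBAH FBgn0085363 had at most 0.0601 CPM and FBgn0033765 had 0.787 to 3.73 CPM, and for both genes the 3 double-mutant libraries were above the other 9. CG10339 had 0.351, 0.431 and 0.682 CPM in ASH1 WT and 1.31, 1.31 and 1.49 CPM in ΔBAH mutAT1. St3, which encodes a sulfotransferase, had 2.81, 1.72 and 2.16 CPM against 6.10, 5.47 and 7.34 CPM. Unlike the former pair, CG10339 and St3 had double-mutant levels in ΔBAH as well, 1.21 to 1.56 CPM and 4.57 to 10.4 CPM. CG14280 had 3 counts in ASH1 WT and 62 in ΔBAH mutAT1, a ratio of 14.1 (95% counting interval 4.60 to 70.1, adjusted p = 1). ΔBAH, with 0.143, 0.421 and 0.603 CPM, and wild type, with 0.504, 0.238 and 0.185 CPM, overlapped the double mutant in CG14280, and ASH1 WT was the lowest line, with at most 0.123 CPM.

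Other leading genes differed by less than 2-fold. hrg, which encodes a poly(A) polymerase, had 397, 482 and 446 CPM in ASH1 WT and 286, 282 and 335 CPM in ΔBAH mutAT1 (log2 fold change -0.55 ± 0.14, SE, adjusted p = 1, or -0.47 and 0.159 with the run term). Elp2, a subunit of the Elongator complex, had 95.8, 95.1 and 114 CPM against 133, 142 and 144 CPM (log2 fold change 0.46 ± 0.12, SE, adjusted p = 1, or 0.50 and 0.159 with the run term). The annexin gene AnxB10 had 11.2, 9.23 and 12.9 CPM against 18.3, 17.3 and 15.8 CPM. For each of them the libraries of the lines did not overlap, which was a condition for naming them. CG9609 had 17.5, 10.5 and 15.5 CPM in ASH1 WT and 22.7, 24.3 and 24.0 CPM in ΔBAH mutAT1 (log2 fold change 0.70 ± 0.19, SE, adjusted p = 1).

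**Figure D3:**
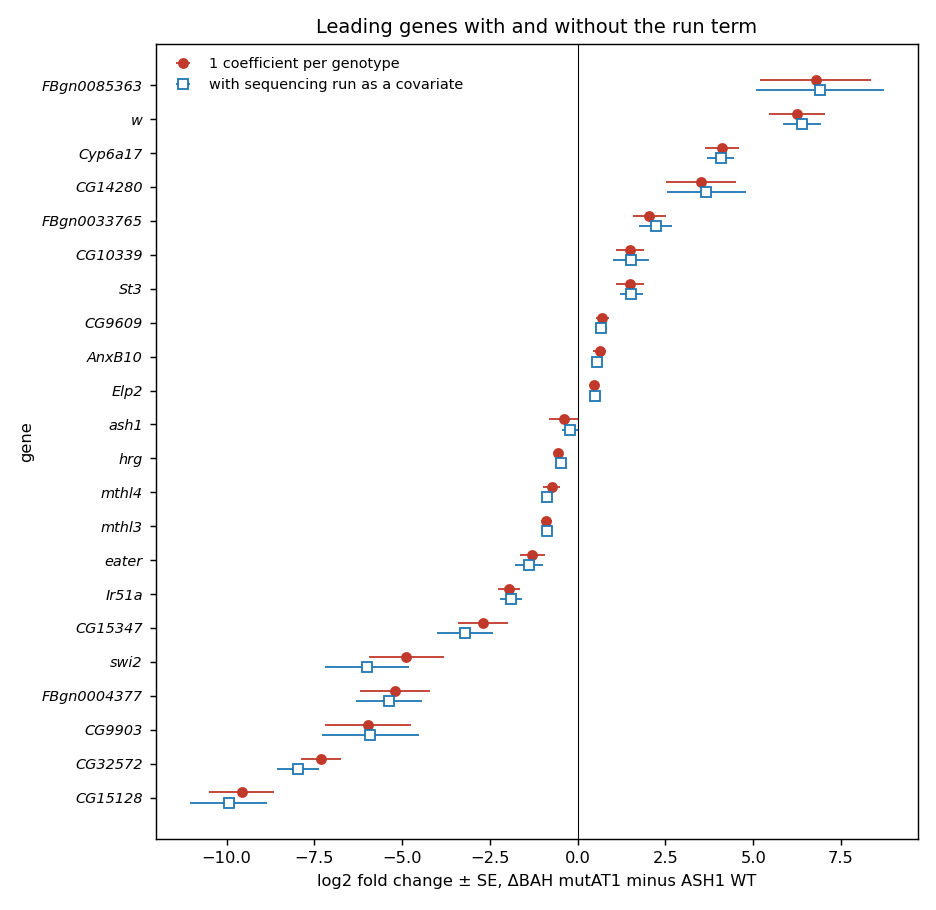
Log2 fold change of ΔBAH mutAT1 minus ASH1 WT with its SE (horizontal axis) for the leading genes and ash1 (vertical axis). Red circles come from the fit with 1 coefficient per genotype and open blue squares from the fit with sequencing run as a covariate. No gene changed sign, but the leading genes were chosen for separated libraries or by the fit with the run term, which favours equal signs. CG32572 moved from -7.30 to -7.96.

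The classical targets and partners of ASH1 did not stand out. Of the Hox genes, the homeotic selectors that ASH1 is known to keep active, 4 of 8 listed were expressed highly enough to be tested, and none passed an adjusted p of 0.05 or an unadjusted p of 0.01, where 0.371% of all tested genes lay below the latter. Antp, the Hox gene of the 2nd thoracic segment from which the wing disc arises, had 114, 173 and 133 CPM in ASH1 WT and 110, 103 and 120 CPM in ΔBAH mutAT1 (log2 fold change -0.33 ± 0.16, SE, adjusted p = 1, or -0.28 and 0.577 with the run term). Ubx, which specifies the neighbouring haltere disc, had 8.26, 8.61 and 8.24 CPM in ASH1 WT and 13.98, 7.43 and 10.7 CPM in ΔBAH mutAT1. Both genes overlapped between the lines. Scr had 0.316, 0.246 and 0.454 CPM in ASH1 WT and 1.48, 0 and 1.25 CPM in ΔBAH mutAT1, which also overlap. The median log2 fold change of the 4 genes was 0.27 without the run term and -0.07 with it, so the sign of that median was not fixed. Antp kept its sign in all 23 alternatives, between -0.46 and -0.16.

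Trithorax and Polycomb group transcripts gave no call. None of 22 tested trithorax group genes and none of 20 tested Polycomb group genes passed an adjusted p of 0.05 or an unadjusted p of 0.01. The median log2 fold changes were -0.10 and -0.09, with 17 of 22 and 16 of 20 genes below 0, beside a median of -0.01 over all genes. With run as a covariate both medians were above 0, at 0.05 and 0.06. For trx, the histone methyltransferase that names the group, the levels were 174, 531 and 421 CPM in ASH1 WT and 304, 225 and 426 CPM in ΔBAH mutAT1. The lowest library of each line was the one of run 2, as for ash1. Trl, which encodes the GAGA factor, had 41.3, 51.1 and 42.0 CPM against 32.0, 33.3 and 37.9 CPM without overlap (log2 fold change -0.38 ± 0.18, SE, adjusted p = 1, and -0.32 with the run term). Among ASH1 partners and enzymes of the same histone mark, none of 9 passed. MRG15, which binds ASH1 and stimulates its activity, had 52.2, 46.6 and 51.7 CPM against 61.1, 58.3 and 51.4 CPM (log2 fold change 0.18 ± 0.16, SE, adjusted p = 1, and 0.09 with the run term), and the groups overlapped.

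Genes of wing disc patterning likewise gave no call among 40 tested, and all of their log2 fold changes lay between -0.41 and 0.36. Of these, 34 were below 0 without the run term but 18 with it, and leaving out ASH1 WT 2 also left 18. Among 21 proneural and bristle genes, which place the sensory organs of the notum, none passed an adjusted p of 0.05 or an unadjusted p of 0.01. pnr, the GATA factor of the notum, had 43.8, 48.5 and 43.1 CPM in ASH1 WT and 31.9, 36.3 and 37.7 CPM in ΔBAH mutAT1. ush, which encodes its cofactor, had 83.8, 112 and 80.7 CPM against 70.9, 73.4 and 66.0 CPM. Both were below ASH1 WT in every library, with log2 fold changes of -0.35 ± 0.14 and -0.40 ± 0.14 (SE, adjusted p = 1 for both). Of the 21 proneural and bristle genes, 16 were below 0 and 5 above. In that list 3 were lower without overlap (2.88% of all genes tested), and 2 were lower at an unadjusted p below 0.05 (1.16%). The proneural gene ac itself, with 30.7, 17.2 and 16.8 CPM against 18.9, 26.9 and 17.4 CPM, overlapped. Ecdysone response, heat shock and JNK, damage and apoptosis lists, with 21, 13 and 23 tested genes, gave no gene at an adjusted p of 0.05 or an unadjusted p of 0.01, and their medians were -0.15, -0.06 and -0.11, or -0.02, -0.07 and -0.12 with the run term.

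In the list of cytochrome P450 and detoxification genes, 1 of 35 tested passed, Cyp6a17, beside 0.0479% of all genes tested. No other member reached an unadjusted p of 0.01, although 2 were higher and 3 lower at an unadjusted p below 0.05, Cyp6a17 included, where 0.971% and 1.16% of all genes were. The list was split by sign, with 19 above 0 and 16 below, and its median of 0.20 changed to -0.04 with the run term. Chemosensory receptor genes were mostly too low to test, and 11 of 29 listed were tested. Among these, Ir51a alone lay below an unadjusted p of 0.01, in the lower direction (0.18% of all genes tested). No gene passed among 11 tested antimicrobial and immune genes of 32 listed. Their lowest p belonged to Tep1, a thioester protein of the hemolymph, with 2.99, 5.04 and 4.26 CPM in ASH1 WT and 1.40, 2.56 and 0.895 CPM in ΔBAH mutAT1 (adjusted p = 1).

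The study names 15 genes for the classes it defined by the BAH domain and the AT hook, and it chose them on these same libraries, so their direction is not independent evidence. All 15 were tested, 14 had a log2 fold change below 0 and the median was -0.85, beside -0.01 for all genes. None passed an adjusted p of 0.05, and 4 lay below an unadjusted p of 0.01, all lower (0.18% of all genes tested did so). These were Ir51a, CG9903, eater and CG15080. CG15080 had 4.95, 7.81 and 5.74 CPM in ASH1 WT and 3.09, 2.36 and 3.64 CPM in ΔBAH mutAT1, without overlap (log2 fold change -1.03 ± 0.33, SE). The exception in sign was Pde1c at 0.02 ± 0.46 (SE), whose libraries overlapped.

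Markers of hemocytes, the blood cells that attach to larval tissues, lay mostly on the lower side. Of 13 tested markers 12 had a log2 fold change below 0, with a median of -0.60 beside -0.01 for all genes, but none passed an adjusted p of 0.05 and 2 lay below an unadjusted p of 0.05, both lower (1.16% of all genes tested). eater, a phagocytic receptor of these cells, had 2.70, 3.01 and 3.01 CPM in ASH1 WT and 1.53, 0.680 and 1.37 CPM in ΔBAH mutAT1, and was the only marker below an unadjusted p of 0.01 (0.18% of all genes, lower). The GATA factor srp, which specifies blood cells, had 5.80, 10.2 and 4.94 CPM against 2.24, 3.85 and 3.10 CPM. Both genes were lower in every double-mutant library (log2 fold changes -1.29 ± 0.36 and -1.18 ± 0.40, SE, adjusted p = 1 for both). For eater the lack of overlap was a condition for naming it among the leading genes. The study also chose eater on these same libraries, so its values are not independent evidence on the markers. Hml, a clotting protein of plasmatocytes, had 12.3, 29.5 and 14.03 CPM against 8.95, 12.1 and 8.95 CPM. PPO2, the prophenoloxidase of crystal cells, had 19.1, 16.9 and 11.99 CPM against 8.57, 5.47 and 8.71 CPM. The receptor gene crq, with 39.4, 43.7 and 45.2 CPM against 38.3, 49.5 and 36.7 CPM, overlapped. Summed over 14 matched markers, of which none was at 0, the level ranged from 240.3 to 305 CPM in ASH1 WT, from 172 to 272 CPM in ΔBAH mutAT1 and from 159 to 229 CPM in wild type. With run as a covariate all 13 were below 0 and the median was -0.79, and without ΔBAH mutAT1 3 the count was 9 of 13. The part of hemocyte content in the values of eater and Tep1 was not tested.

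Other marker lists gave no call either. Most signs were negative in several of them, with 13 of 15 wing disc epithelium, 9 of 10 trachea and 8 of 10 neuron markers below 0. Their medians were -0.10, -0.22 and -0.18, or 0.03, -0.12 and -0.22 with the run term. Of the larval muscle markers, 9 were above 0 and 6 below. Adult muscle precursors, which underlie the notum, had 8 of 9 markers below 0 with a median of -0.34, or -0.27 with the run term, and their summed level was 616 to 829 CPM in ASH1 WT and 553 to 720 CPM in ΔBAH mutAT1. Among them, Mef2 had 87.0, 86.2 and 79.0 CPM against 65.9, 73.8 and 65.9 CPM, without overlap (log2 fold change -0.30 ± 0.13, SE, adjusted p = 1). Salivary gland genes were all above 0 (6 of 6 tested, median 1.76), at summed levels of 0.114 to 4.67 CPM in ASH1 WT and 2.98 to 10.8 CPM in ΔBAH mutAT1, with ng1, ng2 and ng4 at 0. Fat body markers summed to between 24.8 and 125 CPM in ASH1 WT and between 28.8 and 274 CPM in ΔBAH mutAT1. These ranges overlapped, and wild type spanned 19.7 to 2978 CPM of fat body markers and 0.578 to 13.3 CPM of salivary gland genes.

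**Figure D4:**
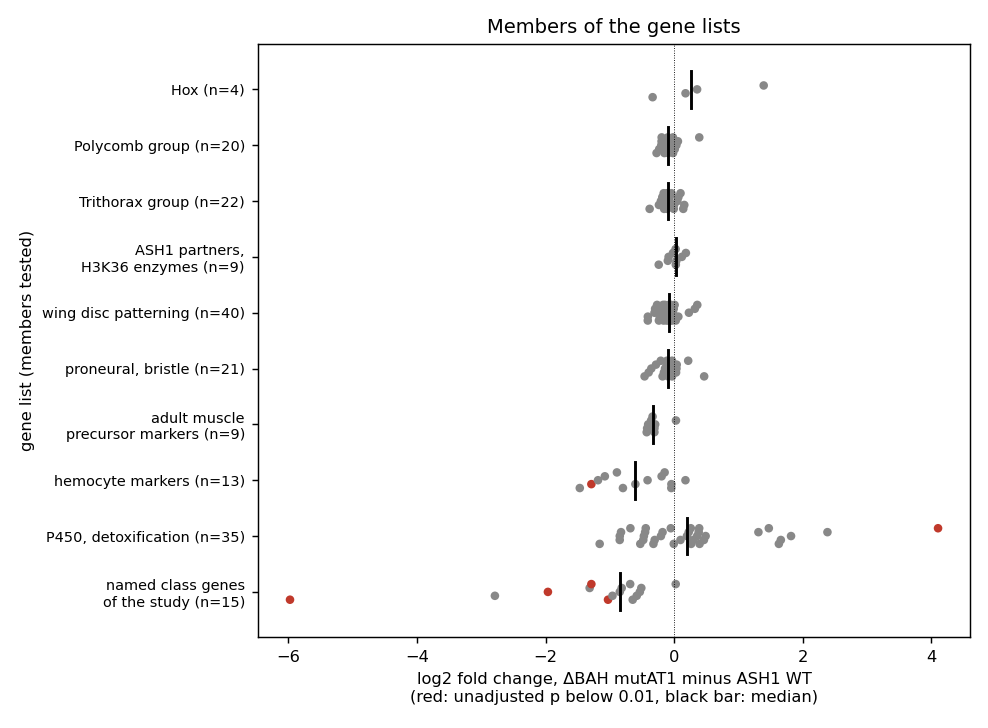
Log2 fold change of ΔBAH mutAT1 minus ASH1 WT (horizontal axis) for the tested members of 10 gene lists (vertical axis, with the number tested). Points are genes, red marks an unadjusted p below 0.01, and black bars are medians, which were -0.60 for the hemocyte markers and -0.85 for the genes the study chose on these libraries.

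The few leading differences were unevenly spread over the chromosomes. An unadjusted p below 0.01 was reached by 31 genes, where 83.5 would be expected if p were uniform. Of these 31, arm 2R held 13 (0.845% of its 1539 tested genes) and X held 9 (0.690% of 1304). Arm 2L, which carries the landing site of the transgenes, held 1 of 1331 and arm 3R held 2 of 1875. No gene of arm 3L, where ash1 lies, was among them, of 1504 tested. A further 6 had no position in the annotation (0.852% of 704 such genes), a share as high as that of 2R. The 2R genes included Cyp6a17, CG15128, Ir51a, mthl3 and swi2. The share was less uneven with run as a covariate, where 160 genes (1.92%) lay below that p, 2.40% on 2R, 2.91% on X, 2.18% on 2L, 1.13% on 3L and 1.12% on 3R. Both lines share the ash1 alleles on chromosome 3, and whether they share the rest of their background was not tested.

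**Figure D5:**
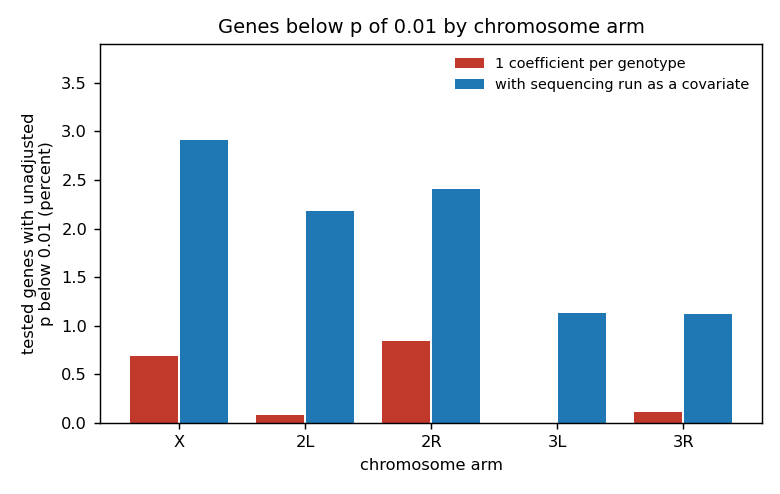
Percentage of the tested genes of each chromosome arm (horizontal axis) that had an unadjusted p under 0.01 in the comparison of the double mutant with ASH1 WT (vertical axis). Red bars come from the fit with 1 coefficient per genotype, in which 2R reached 0.845% and 3L 0%, and blue bars from the fit with sequencing run as a covariate.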

How the data were processed

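RNA-seq was carried out by the authors on 3rd instar wing discs of 4 genotypes with 3 libraries each. Per the study's methods, single-end reads were aligned to dm3 with TopHat 2.0.9 and counted on Ensembl genes with HTSeq 0.5.4p3. The authors deposited raw counts per gene, without normalization, and the strand setting is not given in the sources used here. Libraries were grouped by the genotype in their labels, and all 12 columns were mapped.

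The count table was filtered with filterByExpr of edgeR 4.0.16 (R 4.3.3, minimum count 10), scaled by TMM, and fitted with 1 coefficient per genotype over 12 libraries in a quasi-likelihood model with a prior count of 0.125. Adjusted p are Benjamini-Hochberg values over 8346 genes of 14869. SE were derived from the F statistic, and CPM use TMM-scaled library sizes. Intervals (95%) and limits of 3 counts cover counting error only. Symbols and arms came from BDGP6, which held 13524 identifiers. A further 166 were named from the study's supplementary tables, and list members without a match, such as wg, salm and osa, were not analysed here. No library was a copy of another of its genotype, and pairs across genotypes were not compared. The procedure was tested on simulated data that had the same spread for all genes and no run differences.

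Genes were named where they were ash1 or w, among the 10 smallest p per direction with at least 10 counts and no overlap, past an adjusted p of 0.05 with the run term, the leading members of a list, or named by the study. Pairs, neighbours and other list members were named after their values were seen. The comparison, its gene lists and tests were chosen with earlier results of these data known. Alternatives were RLE factors, DESeq2 1.42.0, limma 3.58.1 voom, other filters, a replicate block, the run term, fewer genotypes, leave-one-out fits and a prior count of 2.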

Additional observations from a re-analysis of the deposited data

How the results depend on the processing

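Of the genes that passed, CG32572 kept an adjusted p below 0.05 in 22 of 23 alternatives, CG15128 and Cyp6a17 in 18 each and w in 17, and none changed sign. Their adjusted p ranged up to 0.0503, 0.0934, 0.267 and 0.178. Replicate numbers did not pair the libraries, since the correlations between libraries of equal number were 0.028, -0.55 and 0.65. With the replicate block 2 genes were higher and 1 lower at an adjusted p below 0.05, CG15128 being lost. Genes lower at an adjusted p below 0.05 numbered 7 with DESeq2 (the same 2, Ir51a, mthl3, swi2, CG9903 and FBgn0004377), 4 with the run covariate and 0 with only the 6 libraries, and genes higher numbered 0 with only the 6 libraries and 1 with the 9 transgenic libraries. At more than 2-fold and an unadjusted p below 0.01, DESeq2 gave 20 higher and 26 lower, limma-voom 25 and 43, only the 6 libraries 6 higher, and the 9 transgenic libraries 6 higher. The lower genes numbered 37 with the run covariate and 44 with it on runs 2 and 3 alone, beside 12 and 9 higher. Leaving out each library in turn gave 0 to 2 genes higher and 1 to 3 lower at an adjusted p below 0.05, and 5 to 19 higher and 9 to 21 lower at more than 2-fold. The lowest counts at an adjusted p below 0.05 (0 higher and 1 lower) came without ASH1 WT 2, ASH1 WT 3 or ΔBAH mutAT1 1, and the highest count of lower genes (3) without ASH1 WT 1 or ΔBAH 1. At more than 2-fold, ASH1 WT 2 left 5 higher and 9 lower when removed, ASH1 WT 3 left 6 higher, ASH1 WT 1 left 19 higher, and ΔBAH 1 and ΔBAH mutAT1 1 left 16 and 21 lower. The ash1 log2 fold change stayed between -0.67 and -0.11. Leaving out each library, Nplp4 spanned -1.14 (without ΔBAH mutAT1 1) to 0.51 (without ASH1 WT 1), and Pde1c spanned -0.29 (without ΔBAH mutAT1 1) to 0.37 (without ΔBAH mutAT1 2). Pde1c was also below 0 with limma-voom (-0.10), the replicate block (-0.069), the run covariate (-0.22) and the latter on runs 2 and 3 (-0.24). The cause of these changes was not tested. The counts of negative markers of hemocytes under each alternative, and of the genes the study names, were added after seeing the data, and lay between 9 and 13 and between 13 and 15. Scaling moved the median of all genes by less than 0.05. In the double mutant CG9903 had 1 count over the group and CG15128 had 0, which limits the precision of their ratios.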
